A study of Mus musculus with 24 samples.

Results

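The genes of the cytosolic ribosomal proteins, the protein subunits of the ribosomes that translate most cellular mRNA, were followed in the pharyngeal arches of mouse embryos of 6 genotypes. Members were taken by symbol: every symbol that starts with Rpl or Rps and a digit, together with Rpsa, Rplp0, Rplp1 and Rplp2, without 33 symbols of annotated pseudogenes and 10 symbols of the Rps6k kinases. The rule gave 91 genes among the 26611 gene identifiers of the count table. Of these, 46 encode large-subunit proteins, 31 encode small-subunit proteins, 12 are paralogs or retrocopies of a subunit gene, and 2 are not subunits (Rps19bp1, which encodes an Rps19-binding protein, and Rps23rg1, a retrogene of Rps23).

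RNA-seq libraries were made from polyadenylated RNA of the first and the second arches of female E10.5 embryos on a C57BL/6 background, with 4 biological replicates per genotype. The groups were wild type (Kat6a +/+, Dlx5 +/+), Kat6a heterozygous (Kat6a +/-, Dlx5 +/+), Dlx5 heterozygous (Kat6a +/+, Dlx5 +/-), double heterozygous (Kat6a +/-, Dlx5 +/-), Dlx5 homozygous (Kat6a +/+, Dlx5 -/-) and Kat6a homozygous (Kat6a -/-, Dlx5 +/+). Kat6a encodes a histone acetyltransferase and Dlx5 a homeodomain factor of the ventral arch. The series asks how losing Kat6a, Dlx5 or copies of both changes expression during craniofacial development. The labels do not say how the - alleles were made or whether a library came from 1 embryo or a pool. Embryos came from 2 mouse facilities, named batches 1 and 2 in the labels: all wild type and Kat6a homozygous libraries were from batch 2, all Dlx5 homozygous libraries from batch 1, and the other 3 groups held both.

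A ribosome joins a small subunit, which reads the mRNA, to a large subunit, which forms the peptide bond, and each holds a fixed set of proteins. In vertebrates many of the mRNAs for these proteins start with an uninterrupted stretch of pyrimidines, the 5′ terminal oligopyrimidine tract, through which growth signals set their translation. In embryos, loss of a copy of some of these genes disturbs blood formation, the skeleton, pigment or neural crest derivatives. Ribosomal protein genes are also known for the many processed copies that they have left across mammalian genomes.

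The copies matter for reading the counts, so near-identical pairs are shown first. Each pair gives a 120-base stretch of coding sequence (GRCm38, sense strand, 5′ to 3′, in lower case); a capital marks a base that differs between the pair. The genes lie at chr3:90212522-90213651 on the minus strand (Rps27), chr9:114982366-114982739 on the minus strand (Rps27rt), chr15:5116645-5119140 on the plus strand (Rpl37), chr5:115102923-115110268 on the minus strand (Rpl37rt), chr3:130726831-130730398 on the minus strand (Rpl34) and chr6:71124610-71124963 on the plus strand (Rpl34-ps1, a pseudogene outside the rule).
Rps27: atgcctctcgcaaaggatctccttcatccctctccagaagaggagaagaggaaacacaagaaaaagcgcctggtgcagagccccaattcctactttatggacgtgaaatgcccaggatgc
Rps27rt: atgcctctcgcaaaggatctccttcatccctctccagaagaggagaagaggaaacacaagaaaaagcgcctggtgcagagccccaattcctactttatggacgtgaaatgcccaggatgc
Rpl37: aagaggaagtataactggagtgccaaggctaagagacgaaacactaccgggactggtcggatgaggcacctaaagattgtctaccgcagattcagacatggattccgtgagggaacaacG
Rpl37rt: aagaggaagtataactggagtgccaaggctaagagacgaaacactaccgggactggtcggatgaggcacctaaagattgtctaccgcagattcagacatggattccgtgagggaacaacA
Rpl34: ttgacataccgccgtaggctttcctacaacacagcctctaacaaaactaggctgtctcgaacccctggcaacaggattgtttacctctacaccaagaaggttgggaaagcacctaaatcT
Rpl34-ps1: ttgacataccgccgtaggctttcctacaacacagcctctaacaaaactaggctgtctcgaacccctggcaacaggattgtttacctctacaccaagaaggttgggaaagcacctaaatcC

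Over the whole coding sequence, Rps27 and Rps27rt differed at 0 of 252 bases. Rpl37 and Rpl37rt differed at 1 of 291 bases, the substitution G249A (parent base, position counted from 1 at the A of the start codon, copy base). Rpl34 and Rpl34-ps1 differed at 2 of 351 bases, T132C and C318G. The copies nevertheless took most of the counts of these pairs. On a scale of counts divided by library size and gene length (CPM per kb, mean of the 24 libraries), Rps27rt was at 346 and Rps27 at 8.49, a ratio of 40.8. Rpl37rt was at 523 and Rpl37 at 17.7, a ratio of 29.5. The order was the reverse for Rpl32l (148, against 796 for Rpl32) and Rpl7l1 (70.9, against 320 for Rpl7), and Rpl6l (112) lay close to Rpl6 (123). No source used here gives how reads that match several genes were counted, and the split between a gene and a copy of it is uncertain.

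Shared sequence was common throughout the family. In 1 GENCODE transcript for each of 90 members, a median of 40.6% of all 100-base words (range 0% to 98.4%) also occurred in a transcript of another gene, and 77 members shared such a word with an annotated pseudogene. Among the 76 subunit genes tested, the 21 with under 25% of shared 100-base words had a median level of 384 CPM per kb, the 22 with 25% to 50% a median of 108, and the 33 with over 50% a median of 31.6. Spearman's rho between the shared share and the level was -0.634 across these 76 genes, a description across genes that share libraries and an annotation. Within the 44 of these genes with a mean of 50 CPM or more, rho was -0.508. Words were matched on either strand and to any other gene, not only to copies: the top match of Rps10 was RPS10-NUDT3. The transcript used can also differ from the gene counted, as for Rps20 (3706 bases against a counted length of 502). The lowest per-length levels in wild type belonged to Rpl13 (4.51 ± 0.76 CPM per kb, SD, n = 4), Rpl38 (5.81 ± 1.19) and Rps13 (7.33 ± 1.85), of whose 100-base words 78.9%, 43.0% and 77.5% were shared. The highest belonged to the stalk protein gene Rplp1 (1545 ± 150), Rpl8 (1530 ± 117) and Rpl41 (1251 ± 265), with 30%, 1.73% and 13% shared. Levels are compared below only within a gene.

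**Figure D1:**
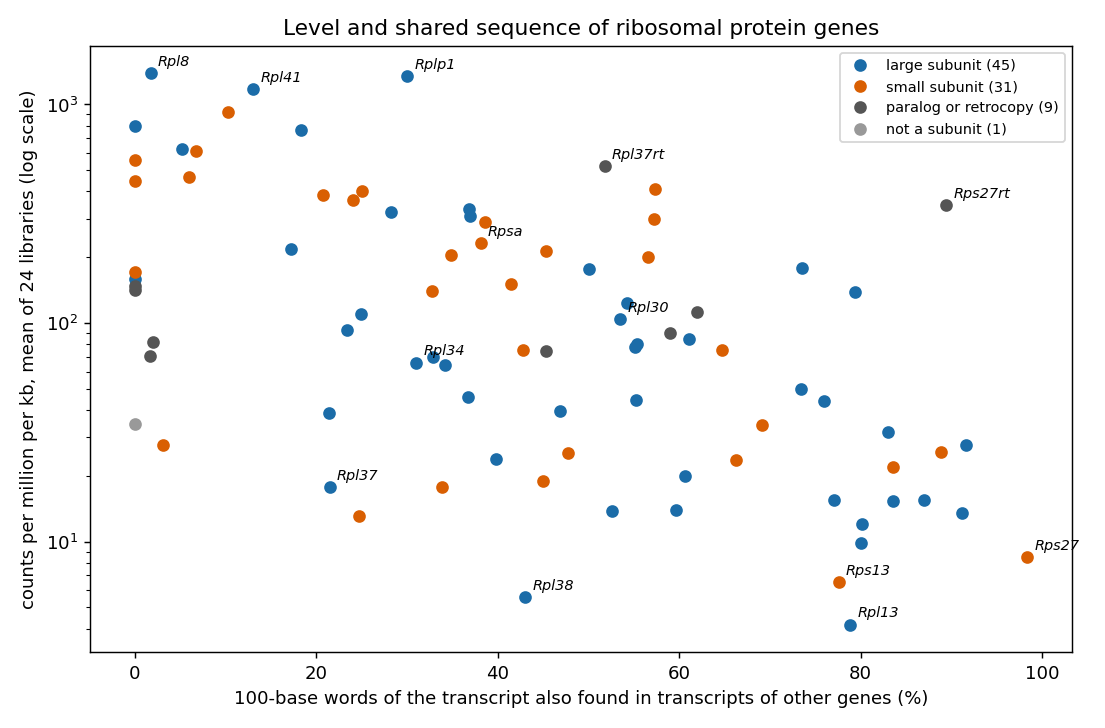
Level of the tested members (mean CPM per kb over 24 libraries, log axis) against the percentage of its transcript's 100-base words that occur in another gene; each point is 1 gene, coloured by role. Subunit genes with over 50% of shared words lie lower (median 31.6) than subunit genes with under 25% (median 384), with wide overlap.

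Start sites of members called in the comparisons below are shown for the pyrimidine tract, which is defined at the start of the mRNA. Each window runs from 15 bases before to 15 bases from the annotated RefSeq start (GRCm38.p6), and capitals mark its longest run of C or T. The positions are chr9:120571502-120571531 (Rpl14, plus strand), chr2:26910792-26910821 (Rpl7a, plus strand), chr15:5116598-5116627 (Rpl37, plus strand), chr17:33824548-33824577 (Rps28, minus strand), chr3:86142654-86142683 (Rps3a1, minus strand) and chr9:120127751-120127780 (Rpsa, plus strand).
Rpl14: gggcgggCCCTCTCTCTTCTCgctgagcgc
Rpl7a: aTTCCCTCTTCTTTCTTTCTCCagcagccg
Rpl37: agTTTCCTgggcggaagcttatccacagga
Rps28: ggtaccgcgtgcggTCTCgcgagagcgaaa
Rps3a1: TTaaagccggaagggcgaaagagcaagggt
Rpsa: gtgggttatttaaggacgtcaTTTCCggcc

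RefSeq held 81 promoters of 69 members, among 32851 promoters of 27025 genes. A C or T run of 8 bases or more lay in 37.0% of the members' windows and in 12% of all windows. Runs were 21 bases in Rpl7a and 14 in Rpl14, and 6, 4, 2 and 5 in Rpl37, Rps28, Rps3a1 and Rpsa. They began at -14, -8, -13, -1, -15 and 7, in this order, with the annotated start at 1. The runs of Rpl37 and Rps3a1 thus lay before the start and that of Rpsa after it. Since a run may lie anywhere in its window, neither the lengths nor the shares measure a tract at the first base of the mRNA. CCGGAAG, the core of ETS factor sites, was found on either strand of the 300-base promoter (250 bases before to 50 after the start) in 33.3% of the members' promoters and 8.86% of all promoters. GCCATC, part of the YY1 site, was found in 24.7% and 14.1%, the E-box CACGTG in 9.88% and 7.15%, and TATAAA in 9.88% and 13.6%. No listed motif contains another, and a match is a description of the annotated sequence only.

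Libraries held 10406452 to 28198111 gene counts, with wild type replicate 1 the deepest, and the members took 1.41% ± 0.11 of the counts (SD, n = 24 libraries, range 1.24% to 1.77%). The share was 1.52% ± 0.17 in wild type, 1.37% ± 0.10 in Kat6a heterozygous, 1.44% ± 0.081 in Dlx5 heterozygous, 1.35% ± 0.079 in double heterozygous, 1.39% ± 0.016 in Dlx5 homozygous and 1.37% ± 0.079 in Kat6a homozygous arches (SD, n = 4 each), and every group overlapped wild type. Genes of arch mesenchyme summed to 1988 to 2576 CPM over 16 markers in all libraries, with none at 0 throughout a group. Kat6a was at 211 to 242 CPM in the libraries labelled Kat6a homozygous and 148 to 247 CPM in wild type. Dlx5 was at 57.7 to 67.4 CPM in those labelled Dlx5 homozygous and 64.6 to 79.0 CPM in wild type. Both ranges overlapped, so neither gene's counts set its own labelled homozygotes apart from wild type. Dlx5 was lowest in the libraries labelled Kat6a homozygous, at 34.5 to 42.4 CPM, below all other libraries (log2 fold change -0.87 against wild type, adjusted p = 1.46458e-07, edgeR). Counts summed over a gene do not check an allele that may lack only some exons, and the directions below rest on the labels.

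Wild type replicate 4 stood apart before any comparison was made. Its members lay on average 0.317 above the mean of all libraries on the log2 CPM scale, the highest deviation of the 24 libraries. In the same library 1215 other genes of at most 1000 bases were 0.207 above their mean and 77 mitochondrial ribosomal protein genes, which encode the separate ribosome of mitochondria, were 0.257 above. Kat6a heterozygous replicate 2 lay at the other end, with -0.263 for the members, -0.179 for the other short genes and -0.147 for the mitochondrial ribosomal genes. In these libraries the members moved to the same side as other short genes. Fits with length-corrected offsets called 12 members in the Kat6a homozygotes against wild type (2.01% of all genes), 10 of them also called without the correction, and 3 in the double heterozygotes (0.496%) in place of 6. Between Kat6a homozygotes and heterozygotes they called 5 members, all lower in the homozygotes (0.869%), in place of 1. With the correction the members' median moved from -0.20 to -0.11 in the Kat6a heterozygotes, from -0.16 to -0.06 in the Dlx5 homozygotes and from -0.17 to -0.10 in the double heterozygotes. It moved from -0.09 to -0.07 in the Kat6a homozygotes against wild type, and from 0.07 to 0.00 against the Kat6a heterozygotes. For the Dlx5 heterozygotes it went from -0.13 to -0.12, and for Dlx5 homozygotes against double heterozygotes from 0.04 to 0.07. The corrected median of all genes was -0.002, -0.008, 0.016, -0.029 and -0.028 in Kat6a homozygotes, Kat6a heterozygotes, Dlx5 homozygotes, Dlx5 heterozygotes and double heterozygotes against wild type. It was 0.010 and 0.050 in the comparisons without wild type. Each comparison with wild type is therefore also given without wild type replicate 4.

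**Figure D2:**
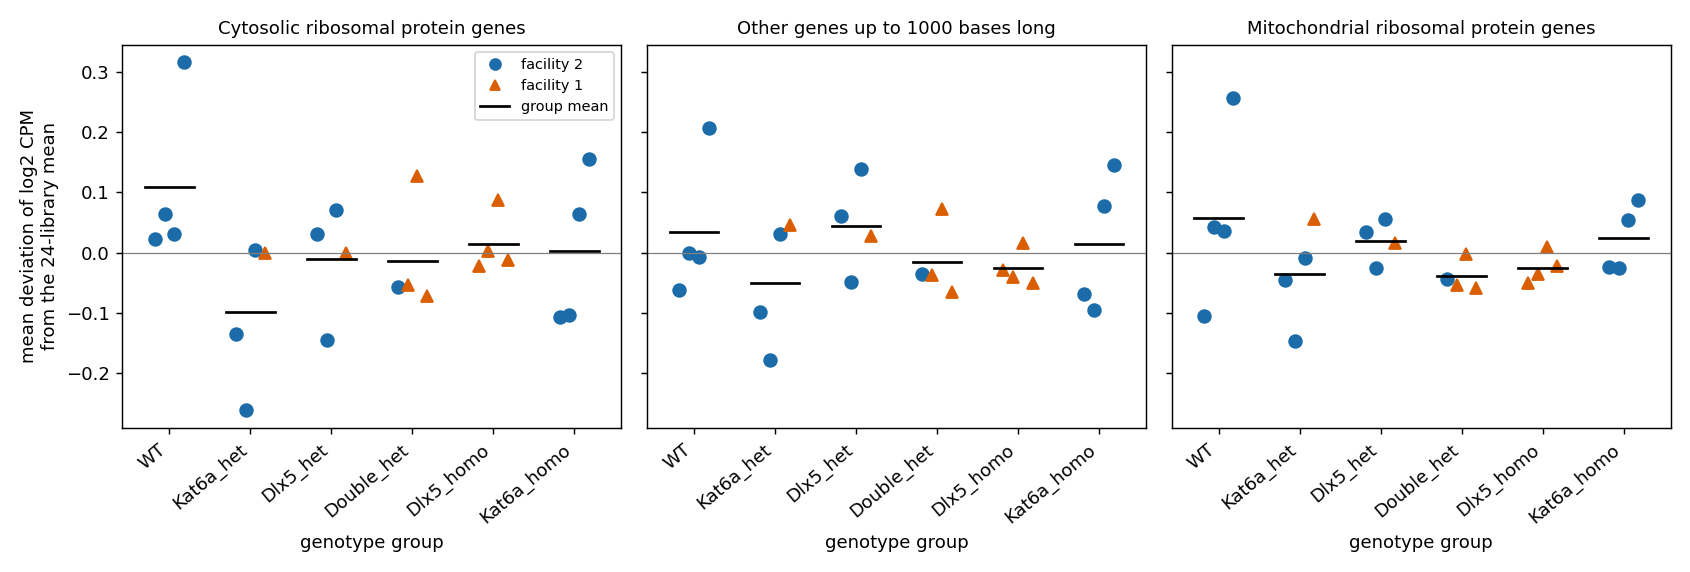
Mean log2 CPM deviation of each library from the mean of the 24 libraries, for the tested members, for 1215 other genes of at most 1000 bases and for 77 mitochondrial ribosomal protein genes; circles are batch 2, triangles batch 1, and bars are group means. Wild type replicate 4 is the highest point for the members (0.317) and Kat6a heterozygous replicate 2 the lowest (-0.263), and both sit on the same side in the other panels.

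Of the 91 members, 87 had enough counts to enter the test. The other 4 were Rpl39, with 53 counts over all libraries and 0 to 6 in each, and 3 paralogs: Rpl39l (30 counts, 0 to 4), Rpl3l (4 counts, at most 2) and Rpl10l, which had 0 counts in every library. Rpl39l and Rpl10l are known for their use in the testis and Rpl3l in striated muscle. Differences were tested with edgeR's quasi-likelihood test across 14506 genes with the facility as a term, and a gene is called where its p, adjusted over all of them by the Benjamini-Hochberg method, is under 0.05. Comparisons with wild type share its 4 libraries. In whole arches, fewer cells that use a gene and less RNA per cell cannot be told apart.

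In Kat6a homozygous arches 12 of the 87 members were lower than in wild type and 0 were higher, or 13.8% of members against 1.53% of all genes called either way and 1.06% called lower. The called members came from both subunits, among them Rpl30, Rpl37, Rpl29, Rpl19, Rpl14 and Rpl8 of the large one, and Rps28, Rps20, Rps21 and Rps3a1 of the small one. Of the 9 tested paralogs and retrocopies edgeR called 0, DESeq2 2 and limma voom 0. By edgeR 2 of them had an unadjusted p under 0.05, as had 13.6% of all genes. The nearest to a call by edgeR was Rpl22l1 (log2 fold change -0.45, adjusted p = 0.0546). The median log2 fold change was -0.09 over the members and 0.01 over all genes. It was -0.10 over 31 small-subunit and -0.09 over 45 large-subunit genes, and 68 members were below 0.

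Rpl30, a large-subunit gene, showed the clearest drop. Its levels were 73.1, 78.9, 68.6 and 82.3 CPM in wild type replicates 1 to 4, and 44.2, 50.1, 55.1 and 59.5 CPM in Kat6a homozygous replicates 1 to 4. The groups did not overlap: the highest Kat6a homozygous library lay below the lowest wild type library. The log2 fold change was -0.54 ± 0.073 (SE), with an adjusted p of 8.21937e-05 (edgeR). Kat6a heterozygous libraries lay between, at 65.0 to 73.4 CPM, overlapping wild type but not the Kat6a homozygotes. Dlx5 homozygous libraries, at 56.8 to 64.6 CPM, also lay below every wild type library, without a call by edgeR. Dlx5 heterozygous (64.9 to 72.7 CPM) and double heterozygous libraries (65.1 to 69.5 CPM) overlapped wild type.

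Rpl37, whose product is a small zinc-binding protein of the large subunit, had the largest log2 fold change among the called members. It was at 19.7, 19.0, 16.3 and 22.0 CPM in wild type and at 11.2, 11.9, 11.5 and 15.3 CPM in Kat6a homozygous arches. Again no homozygous library reached the wild type range, and the log2 fold change was -0.63 ± 0.116 (SE, adjusted p = 0.00303, edgeR). Dlx5 heterozygous libraries, at 14.3 to 15.6 CPM, also lay below every wild type library, without a call by edgeR. Means of the other mutant groups ran from 14.2 to 16.1 CPM, against 19.2 in wild type and 12.5 in the Kat6a homozygotes. Its copy Rpl37rt was at 336 to 393 CPM in wild type and 311 to 337 CPM in the homozygotes, and was not called (log2 fold change -0.18, adjusted p = 0.104). Of the 100-base words of the Rpl37 transcript 21.5% occur in Rpl37rt, so a part of its reads cannot be told from those of the copy.

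Rpl29, which encodes a basic protein of the large subunit, was at 138, 164, 127 and 157 CPM in wild type and at 113, 109, 105 and 121 CPM in Kat6a homozygous arches. The groups did not overlap, and the log2 fold change was -0.39 ± 0.073 (SE, adjusted p = 0.00428, edgeR). Double heterozygous libraries, at 114 to 123 CPM, also lay below every wild type library, without a call by edgeR, and the other groups overlapped wild type. Matches to other genes are frequent here as well: 50.1% of the 100-base words of Rpl29 and 53.5% of those of Rpl30 occur elsewhere.

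Among small-subunit genes, Rps28 was at 26.1, 28.8, 29.1 and 31.4 CPM in wild type and at 19.4, 19.4, 20.5 and 25.2 CPM in the homozygotes. Rps21 was at 69.3, 69.3, 73.1 and 80.9 CPM in wild type and at 44.5, 52.8, 54.5 and 62.8 CPM in the homozygotes. In both genes all 4 homozygous libraries lay below all wild type libraries, and both log2 fold changes were -0.45, with adjusted p of 0.0123 and 0.0178 (edgeR). Rps28 was also below every wild type library in Kat6a heterozygous (22.5 to 25.1 CPM) and Dlx5 heterozygous arches (23.2 to 26.0 CPM), without a call by edgeR. None of the 100-base words of Rps21 is shared, in contrast to Rps28 with 42.8%.

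Rps20 was at 230 to 301 CPM in wild type and 203 to 234 CPM in the homozygotes, and the ranges overlapped. Its log2 fold change was -0.29 (adjusted p = 0.0171). Rpl19 (-0.33, adjusted p = 0.0200), Rpl14 (-0.32, adjusted p = 0.0238) and Rpl8 (-0.20, adjusted p = 0.0393) did not overlap between the groups. Rps3a1 (-0.23, adjusted p = 0.0459), close to the threshold, did not overlap either. In all, 9 of the 12 called members had no overlap, or 75%, against 89.2% of the 222 genes called in this comparison, all chosen by their p in the same libraries. Of the 87 tested members 11 had no overlap (12.6%), against 6.4% of all genes tested. The called members spanned wild type means from 19.2 CPM (Rpl37) to 1319 CPM (Rpl8).

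**Figure D3:**
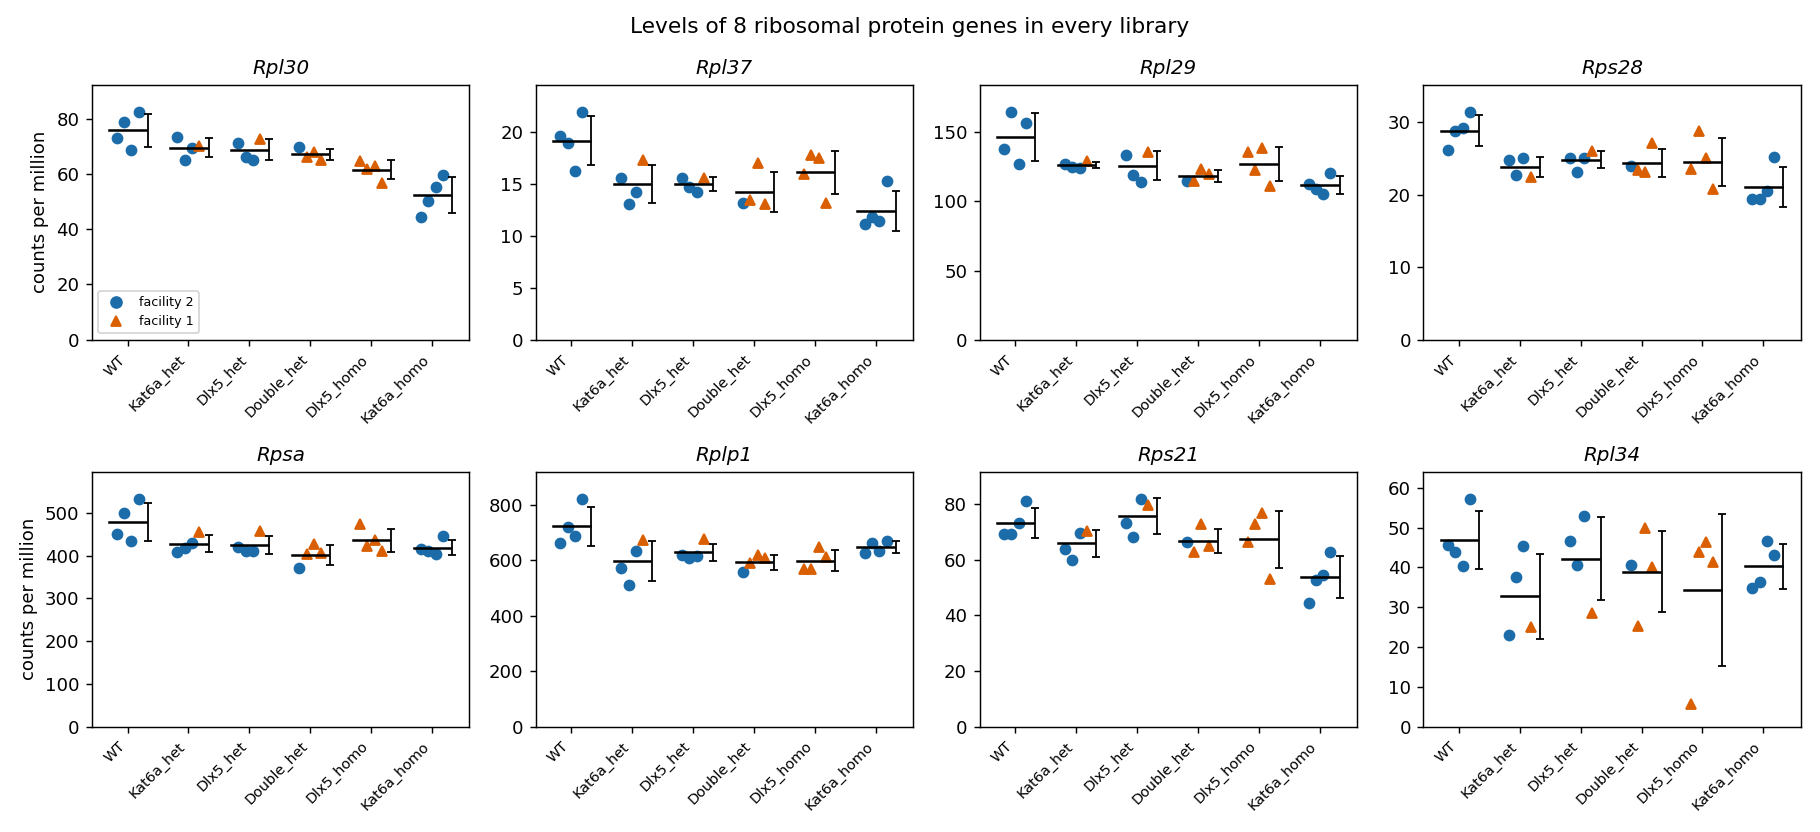
CPM per library for Rpl30, Rpl37, Rpl29, Rps28, Rpsa, Rplp1, Rps21 and Rpl34 in the 6 groups; points are libraries, bars group means and error bars the SD (n = 4). Rpl30 in Kat6a homozygous arches (44.2 to 59.5) lies below every wild type library (68.6 to 82.3), and 1 Dlx5 homozygous library falls to 5.77 for Rpl34.

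The count depended on single libraries. Without wild type replicate 4 there were 4 called members, with 1.09% of all genes called: Rpl30 (adjusted p = 0.000336), Rpl37 (adjusted p = 0.0127), Rpl29 (adjusted p = 0.0141) and Rps28 (adjusted p = 0.0401), and the median over the members was -0.04. Without Kat6a homozygous replicate 4 the median was -0.15. Without Kat6a homozygous replicate 1 there were 3 (0.833% of all genes), without its replicate 2 there were 4 (0.963%), and without wild type replicate 2 there were 7 (0.97%). Rpl30 and Rpl37 were called under each of the 38 alternatives run, with the log2 fold change of Rpl30 between -0.61 and -0.47. Of the 16 arch mesenchyme markers 3 were also lower in the Kat6a homozygotes, Dlx1 (-0.53), Barx1 (-0.56) and Dlx2 (-0.36). The muscle progenitor gene Msc was lower too (-0.93), while the macrophage gene Mrc1 was higher (0.88). All 12 tested erythroid markers lay higher (median 0.31, 0 called by edgeR). Their sums ran from 2572.5 to 7760.5 CPM, the top in replicate 4, against 2035.7 to 5096.1 CPM in wild type, with 5096.1 in replicate 4. The median sum was 2702.6 CPM against 2990.6 CPM in wild type. The part of these cell types in the members' values was not tested. Neuron and glia markers differed between libraries: over 19 markers they summed to 72.2 to 548 CPM in wild type and 65.4 to 353 CPM in the homozygotes, with Neurog2 at 0 in every homozygous library. Without 5 replicate 2 libraries, 1 in each group except Dlx5 homozygous, 2 members were called, Rpl30 and Rpl37, with 0.495% of all genes. These 5 had a marker score above the mean of all libraries, but were not the 5 highest.

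Double heterozygous arches, with 1 labelled copy of each gene left, had 6 of 87 members lower than wild type and 0 higher, or 6.9% against 0.448% of all genes called either way and 0.152% called lower. Among the called members were Rpsa and Rps3a1 of the small subunit and Rplp1, Rpl8 and Rpl7a of the large one. Rpsa, which doubles as a laminin receptor, was at 452, 499, 436 and 533 CPM in wild type and at 371, 403, 428 and 406 CPM in the double heterozygotes. Rplp1 was at 661, 722, 688 and 822 CPM in wild type and at 557, 590, 620 and 608 CPM in the double heterozygotes. Neither gene overlapped between the groups, although the nearest libraries of Rpsa were only 428 and 436 CPM. The log2 fold changes were -0.36 ± 0.070 for Rpsa and -0.41 ± 0.080 for Rplp1 (SE), each with an adjusted p of 0.0202 (edgeR).

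Rpl7a, a large-subunit gene, was at 157, 168, 156 and 175 CPM in wild type and at 126, 139, 149 and 140 CPM in the double heterozygotes, with no overlap (log2 fold change -0.28, adjusted p = 0.0424). In the Kat6a homozygotes it was at 156 to 164 CPM, inside the wild type range (log2 fold change -0.03, adjusted p = 0.816). Rps3a1 (-0.34, adjusted p = 0.0300) and Rpl8 (-0.28, adjusted p = 0.0415) did not overlap either. Rpl30 was at 65.1 to 69.5 CPM in the double heterozygotes and was not called (log2 fold change -0.19, adjusted p = 0.355). The median was -0.17 over the members, or -0.10 without wild type replicate 4, and 0.01 over all genes, and 78 members were below 0.

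The count of 6 also depended on single libraries. It was 0 without wild type replicate 4 (0.0887% of all genes called), without Kat6a heterozygous replicate 4 (0.0751%) and without double heterozygous replicate 1 (0.00682%). It was 2 without wild type replicate 2 (0.355%), double heterozygous replicate 2 (0.164%) or double heterozygous replicate 4 (0.143%), 3 without Dlx5 heterozygous replicate 4 (0.212%), and 11 and 13 without wild type replicate 1 (1.15%) or 3 (0.703%). It was also 0 without the facility term (0.0689%), and 0 within batch 2 (0.06%), which holds 1 double heterozygous library. The members' median was -0.12 without the facility term and -0.21 within batch 2, against -0.17 with all libraries and the term. Facility and genotype are partly mixed in this group, since 3 of its 4 libraries came from batch 1. Neuron and glia markers summed to 176 to 371 CPM in the double heterozygotes, and 17 of the 17 tested lay above wild type (median log2 fold change 1.23, 0 called by edgeR). In the fit without the 5 replicate 2 libraries above the mean for these markers, 1 member was called (0.997% of all genes). That fit left out the double heterozygous library with the lowest sum (176 CPM) and kept those at 231 to 371 CPM.

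In Kat6a heterozygous arches 0 members were called by edgeR, as were 0% of all genes. An unadjusted p under 0.05 was found for 38 of the 87 members and for 11.4% of all genes. DESeq2 called 9 (0.551% of all genes) and limma voom 0. All 87 members lay below wild type, with a median of -0.20 against 0.01 over all genes. Among the related lists described below, 24 of 24 genes of translation factors and other mRNAs with a pyrimidine tract also lay lower. So did 35 of 41 of ribosome biogenesis, 69 of 77 mitochondrial ribosomal protein genes and 36 of 37 of oxidative phosphorylation. The p53 and Myc lists had 7 of 16 and 3 of 8 below 0. The smallest p belonged to Rplp1, at 573, 510, 633 and 675 CPM (log2 fold change -0.32, adjusted p = 0.128), and Rpl8 (-0.22, adjusted p = 0.146) was among the next. Rplp1 overlapped wild type in replicate 4 only. The median was -0.11 without wild type replicate 4, and 7 members were called without wild type replicate 1, with 1.34% of all genes.

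In Dlx5 heterozygous arches 0 members were called, as were 0% of all genes. An unadjusted p under 0.05 was found for 28 of the 87 members and for 11.3% of all genes. DESeq2 called 1 member (0.214% of all genes) and limma voom 0. The median was -0.13, or -0.06 without wild type replicate 4, and 76 members were below 0. Rpl23 (-0.22, adjusted p = 0.217), Rplp1 (-0.24, adjusted p = 0.222) and Rpsa (-0.21, adjusted p = 0.222) had the smallest p. Rpl23 was at 109, 111, 101 and 115 CPM in wild type and at 95.8, 94.1, 85.2 and 101.3 CPM in the Dlx5 heterozygotes, which overlapped in 1 library.

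In Dlx5 homozygous arches 0 members were called against 0.0551% of all genes. An unadjusted p under 0.05 was found for 22 of the 87 members and for 9.97% of all genes. DESeq2 called 3 (0.262% of all genes) and limma voom 1. The median was -0.16 over the members, or -0.09 without wild type replicate 4, and 0.00 over all genes, and 77 members were below 0. By edgeR 1 member was called without wild type replicate 3 (0.0887% of all genes), Kat6a heterozygous replicate 3 (0.0956%) or Dlx5 homozygous replicate 3 (0.109%). Markers of other cell types also differed from wild type. All 17 tested neuron and glia markers lay lower (median -1.63), with sums of 57.4 to 80.7 CPM against 72.2 to 548 CPM in wild type and Nhlh1 at 0 in the 4 Dlx5 homozygous libraries. Of 12 erythroid markers 11 lay higher (median 0.79), with sums of 2478 to 5145 CPM against 2036 to 5096 CPM. Of 12 epithelial markers 10 lay lower (median -0.35), with sums of 501 to 547 CPM against 448 to 607 CPM. Of 12 endothelial markers 11 lay lower (median -0.19), with sums of 415 to 424 CPM against 432 to 481 CPM, and only Cldn5 was called among these 4 lists (-0.74, adjusted p = 0.0488, edgeR). The part of these cell types in the members' values was not tested. Rplp1 was at 570, 570, 647 and 611 CPM, below every wild type library, and missed the threshold (log2 fold change -0.44, adjusted p = 0.0568, edgeR). Its log2 fold change ran from -0.49 to -0.27 over the 36 alternatives run. The paralog Rps4l (-0.51, adjusted p = 0.197) and Rpsa (-0.28, adjusted p = 0.255) had the next smallest p. All Dlx5 homozygous libraries came from batch 1 and all wild type libraries from batch 2, so the facility enters this comparison only through the term estimated in the other groups. Without that term the members' median was -0.10, 68 members were below 0 and 0 were called (0.0551% of all genes). The facility term called 0 members by edgeR (0.0345% of all genes), 1 by DESeq2 (0.186%) and 1 by limma voom (0.345%), with a median of 0.08 over the members. For this term 14 members and 6.51% of all genes had an unadjusted p under 0.05.

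**Figure D4:**
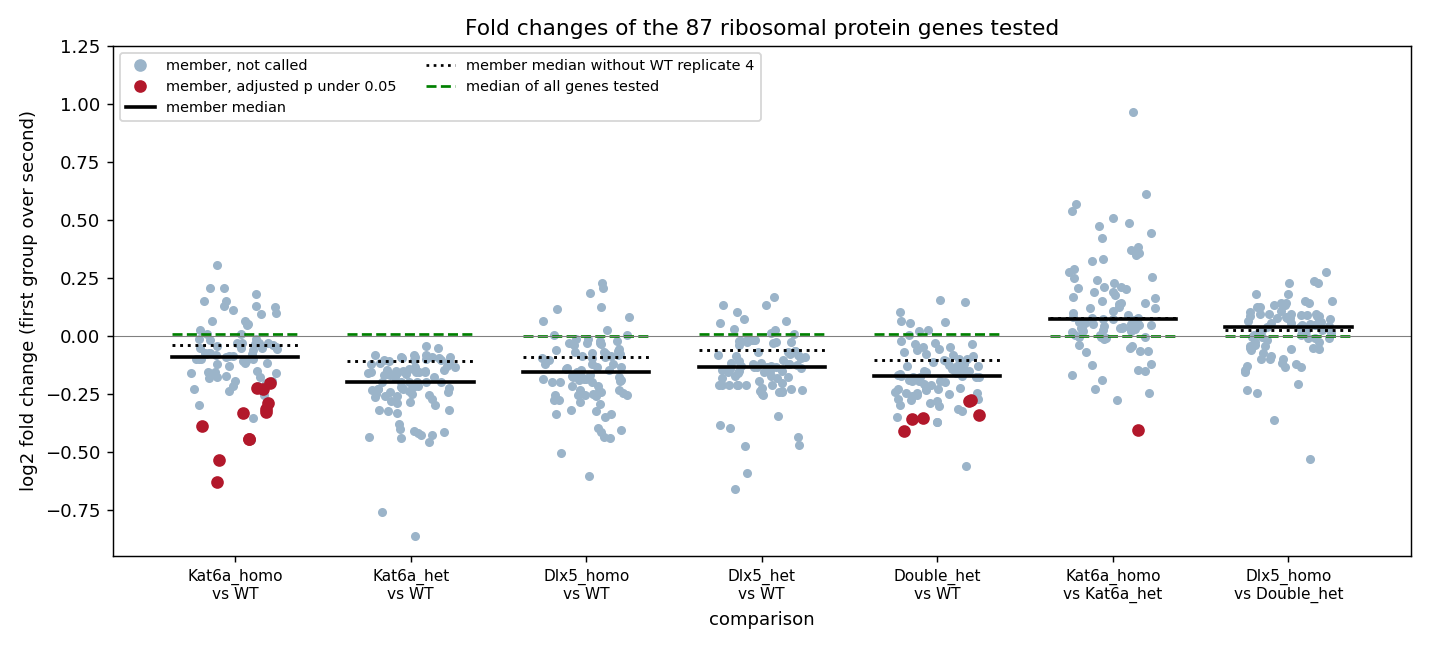
Log2 fold changes of the 87 tested members in 7 comparisons; each point is 1 gene, red points were called by edgeR, the solid line is the members' median, the dotted line the same without wild type replicate 4 and the dashed line the median of all genes. Members sit mostly below 0 in the comparisons with wild type, with medians from -0.20 to -0.09, and above 0 in the comparisons without it.

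By the members' median, the comparisons that do not use wild type libraries as a group did not show the family lower. Between Kat6a homozygous and Kat6a heterozygous arches 1 member was called, lower in the homozygotes, against 0.641% of all genes called either way and 0.524% called lower: Rpl30, at 44.2 to 59.5 CPM in the homozygotes and 73.4, 65.0, 69.2 and 70.2 CPM in the heterozygotes. The ranges did not overlap, and the log2 fold change was -0.41 ± 0.076 (SE, adjusted p = 0.00552, edgeR). The median over the members was 0.07 (0.03 to 0.13 as single libraries were left out), and only 21 members were below 0. Rpl27 (0.54, adjusted p = 0.0919) and Rps23 (0.57, adjusted p = 0.0976), of the large and the small subunit, had the next smallest p, on the side of higher levels in the homozygotes. With Dlx5 homozygous replicate 1 left out, 2 members were called (0.635% of all genes). Length-corrected offsets called 5 members lower and 0 higher in the homozygotes (0.869% of all genes). With them 43 members were below 0 and the median was 0.00. The call of Rpl30 was lost within batch 2 (adjusted p = 0.0731, edgeR) and with only the 2 groups in the fit (adjusted p = 0.137). It was also lost without the 5 replicate 2 libraries above the mean for neuron and glia markers (adjusted p = 0.0786). The log2 fold change of Rpl30 in these fits was -0.41, -0.41 and -0.42.

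Between Dlx5 homozygous and double heterozygous arches 0 members were called, as were 0% of all genes. An unadjusted p under 0.05 was found for 12 of the 87 members and for 7.18% of all genes. DESeq2 called 2 members (0.0483% of all genes) and limma voom 1 (0.276%). The median was 0.04 and moved between 0.00 and 0.08 as single libraries were left out, and Rpl15 (0.27, adjusted p = 0.325), Rpl7a (0.23, adjusted p = 0.337) and Rpl23 (0.18, adjusted p = 0.601) had the smallest p. Neuron and glia markers summed to 57.4 to 80.7 CPM in the Dlx5 homozygotes, with Nhlh1 at 0 in all 4, against 176 to 371 CPM in the double heterozygotes. Their part in these values was not tested.

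Across the 6 groups at once, 8 members differed by edgeR's F test, or 9.2% against 1.39% of all genes. Among them were Rpl30 (adjusted p = 0.00172), Rpl37 (0.0319), Rplp1 (0.0333), Rpl7a (0.0349), Rpl29 (0.0361), Rps23 (0.0476) and Rpl23 (0.0494). Rps23, a decoding-centre protein of the small subunit, was the only one of the 8 with its highest group mean outside wild type: it was at 9.75, 9.24, 8.65 and 13.04 CPM in wild type and 12.4, 9.83, 13.2 and 14.8 CPM in the Kat6a homozygotes, and the ranges overlapped. This count moved between 1 and 15 as single libraries were left out. The share of all genes called in the same fit stands in parentheses. The count was 15 without wild type replicate 3 (1.56%). It was 1 without double heterozygous replicate 1 (0.826%) or Kat6a homozygous replicate 1 (0.724%), and 2 without wild type replicate 2 (1.2%), double heterozygous replicate 4 (1.02%) or Kat6a homozygous replicate 2 (0.833%). The count was 3 when wild type replicate 4 (1.44%), Kat6a heterozygous replicate 4 (1.06%), double heterozygous replicate 2 (1.11%) or Kat6a homozygous replicate 3 (1.24%) was omitted. Leaving out Dlx5 heterozygous replicate 4 gave 4 (1.18%), and a count of 5 followed from leaving out Kat6a heterozygous replicate 2 (1.3%) or Dlx5 heterozygous replicate 1 or 2 (1.19% each).

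From genes of this family that cause human anaemia or a mouse phenotype when mutated, a list of 18 was taken, all tested. The list is a selection and holds neither Rps28 nor Rpl29, both called lower in the Kat6a homozygotes. In the Kat6a homozygotes 1 of the list was lower, Rps20, and in the double heterozygotes 1 was lower, Rpsa. In the other 5 comparisons edgeR called 0 of the list. There 1 to 6 had an unadjusted p under 0.05, as had 7.18% to 11.4% of all genes. The shares of all genes called by edgeR are those given above for each comparison. DESeq2 called 2 of the list in the Kat6a homozygotes (2.11% of all genes), 2 in the double heterozygotes (1.28%) and 3 in the Kat6a heterozygotes (0.551%) against wild type. It called 1 between Kat6a homozygotes and heterozygotes (1.01%), 1 between Dlx5 homozygotes and double heterozygotes (0.0483%) and 0 in the other 2 comparisons, and limma voom called 1, in the double heterozygotes. Rps19, the gene first tied to Diamond-Blackfan anaemia, was at 76.3 to 109 CPM over all libraries and had log2 fold changes of -0.15 in the Kat6a homozygotes (adjusted p = 0.398) and -0.18 in the double heterozygotes (adjusted p = 0.437). Rpl5 and Rpl11, whose products bind Mdm2 when ribosome assembly fails, were at -0.10 (adjusted p = 0.75) and 0.15 (adjusted p = 0.743) in the Kat6a homozygotes. Rpl38, known for its effect on the axial skeleton, was at only 1.07 to 2.81 CPM, and its log2 fold change of 0.12 had an SE of 0.209. At that depth a change of the size seen in Rpl30 would be less than 3 SE. Of the X-linked members Rps4x, Rpl10 and Rpl36a, 0 were called in any of the 7 comparisons by edgeR, DESeq2 or limma voom, with at most 1 at an unadjusted p under 0.05 in each.

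Variation between replicates was uneven over the family. Rpl34 had the largest SD within group and facility (0.675 on the log2 CPM scale), followed by Rpl13 (0.403), Rpl12 (0.339), Rps13 (0.336) and Rps2 (0.329), and Rpl8 (0.0569), Rps4x (0.0605) and Rpl7a (0.0614) had the smallest. Rpl34 was at 5.77, 43.8, 46.5 and 41.4 CPM in the Dlx5 homozygotes and at 23.0, 37.6, 45.5 and 25 CPM in the Kat6a heterozygotes. Its pseudogene Rpl34-ps1, shown above, stayed at 59.2 to 89.9 CPM in all 24 libraries. Members at 10 to 50 CPM had a median SD of 0.183, against 0.130 for all genes at that level, and members at 50 to 200 CPM had 0.122 against 0.0927. At 200 CPM or more the values were 0.0927 and 0.0928. Across the 76 subunit genes the SD had a Spearman's rho of 0.485 with the share of 100-base words held in common with other genes, and of 0.141 among the 44 genes of 50 CPM or more.

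Lists of related pathways held 0 genes called by edgeR in each of the 7 comparisons. DESeq2 called some of their genes, as given below, and limma voom only in the double heterozygotes. The lists were 24 tested genes of translation factors and other mRNAs with a pyrimidine tract (Eef1a1, Rack1, Npm1 and Fau among them), 41 genes of ribosome biogenesis, 77 mitochondrial ribosomal protein genes, 37 short nuclear genes of oxidative phosphorylation, 16 genes of the p53 response and 8 of Myc and its partners. In the Kat6a homozygotes their medians were -0.02, 0.05, -0.03, -0.10, -0.01 and 0.02, against -0.09 for the members. In the double heterozygotes they were -0.13, -0.15, -0.14, -0.15, -0.09 and 0.02, against -0.17 for the members. Medians in the Kat6a heterozygotes were -0.10, -0.07, -0.10, -0.12, 0.00 and 0.05, against -0.20 for the members. Those in the Dlx5 homozygotes were -0.09, -0.01, -0.11, -0.16, -0.05 and -0.01, against -0.16. Those in the Dlx5 heterozygotes were -0.13, -0.14, -0.05, -0.05, 0.00 and -0.03, against -0.13. In the Kat6a homozygotes 5, 1, 4, 9, 3 and 1 genes of these lists had an unadjusted p under 0.05, as had 13.6% of all genes. DESeq2 called 2 of the first list (2.11% of all genes) and limma voom 0 of any (0.993%). In the double heterozygotes 9, 13, 12, 10, 5 and 1 had an unadjusted p under 0.05, as had 13% of all genes. DESeq2 called 5 of the first list and 3 of ribosome biogenesis (1.28% of all genes), and limma voom 2 and 1 (0.91%). For the Kat6a heterozygotes DESeq2 called 1, 3, 1 and 3 of the first 4 lists (0.551%). It called 2 of the first list in the Dlx5 heterozygotes (0.214%) and 0 of any in the Dlx5 homozygotes (0.262%). Between Kat6a homozygotes and heterozygotes it called 2 of the first list and 1 of oxidative phosphorylation (1.01%). Between Dlx5 homozygotes and double heterozygotes it called 0 (0.0483%). Rack1, a scaffold protein of the small subunit that lies outside the symbol rule, was close to the threshold in the Kat6a homozygotes (-0.22, adjusted p = 0.0561). Fau, which encodes a ribosomal protein fused to a ubiquitin-like protein, had a log2 fold change of -0.12 (adjusted p = 0.747). Tcof1, Polr1c and Polr1d, whose human counterparts are mutated in Treacher Collins syndrome, were at 0.09, -0.07 and -0.07, and Myc, Mycn and the p53 target Cdkn1a at 0.01, -0.12 and 0.03, with adjusted p between 0.607 and 0.991.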

How the data were processed

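The submitters' processing notes name CASAVA 1.8.2, featureCounts and the build mm10. How multi-mapping reads were treated was not given in the sources used. The deposited values are whole-number read counts per gene, not normalized by the authors. The series' table and the 24 sample tables held identical counts. Of 27179 entries, 568 without an identifier (0.182% to 0.259% of counts) were left out, and symbols were found for 25275 of 26611 identifiers.

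Counts were analysed with edgeR 4.0.16 (R 4.3.3): filterByExpr, TMM scaling, robust quasi-likelihood fit on 24 libraries with genotype and facility as terms, 17 residual degrees of freedom, Benjamini-Hochberg adjustment over 14506 genes. CPM are TMM-scaled, and log2 CPM for deviations and SDs used a prior count of 2. Log2 fold changes come from the fit with edgeR's default prior count. DESeq2 1.42.0, limma voom 3.58.1, other scalings and filters, length-corrected offsets and leaving out libraries were alternatives. The scripts were tested on simulated data. Some genes of the sets counted here are not reported by name. Shared words were counted in GENCODE M21 transcripts, and promoters came from RefSeq (GRCm38.p6). Intervals cover counting and replicate error only.

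The members and lists were chosen with earlier results of these data known. Named members were at most 10 called ones per comparison by smallest p, or the 3 with the smallest p where fewer than 3 were called; the extremes of level and of spread; the paralogs, the disease list, the X-linked members, the untested members and the rule matches that are not subunits. Correlations of deviations between same-numbered replicates were positive in every pair for Kat6a heterozygous against wild type (0.183 to 0.661). They were also positive for Kat6a homozygous against wild type (0.0949 to 0.569) and against Kat6a heterozygous (0.0834 to 0.620). For Dlx5 homozygous against double heterozygous they ran from 0.000354 to 0.137. With the replicate number as a block, 0, 13, 1 and 0 members were called in these comparisons, in this order (0%, 2.01%, 0.731% and 0% of all genes).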

Additional observations from a re-analysis of the deposited data

Results flagged for a closer look

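In a group of 4 libraries, a highest or lowest library far from the others (Dixon's ratio above its critical value) was found in 31 of 522 combinations of member and group, or 5.94%, where chance gives about 1 in 20. Wild type replicate 4 was the high library for 9 members, among them Rpl31 (21.9 CPM), Rpl27 (18.2), Rps24 (312), Rpl3 (237), Rpl35 (18.3), Rpl22l1 (50.2) and Rpl32 (497 CPM). Dlx5 heterozygous replicate 2 was the low library for Rpl7 (281 CPM), Rps6 (25.2) and Rps19 (78.1 CPM), among others. Double heterozygous replicate 3 was the high library for Rpl37 (17.1 CPM), Rps20 (237), Rps9 (296) and Rpl10 (25.4 CPM).

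Dlx5 homozygous replicate 1 was low for Rpl34 (5.77 CPM) and Rpl3 (120 CPM) and high for Rps23 (14.6 CPM) and Rpl22 (356 CPM). Dlx5 heterozygous replicate 4 was high for Rpl18 (57.0 CPM) and Rplp1 (676 CPM). Among the double heterozygotes, replicate 1 was low for Rpl27 (12.7 CPM) and Rpl4 (829 CPM), and replicate 4 for Rpl35a (33.6 CPM) and Rpl24 (6.87 CPM). The others were Rps27a, low in Kat6a heterozygous replicate 2 (21.8 CPM), Rpl13a, high in Kat6a heterozygous replicate 3 (92.8 CPM), Rpl38, low in Kat6a homozygous replicate 2 (1.86 CPM), and Rps3a1, high in Kat6a homozygous replicate 3 (196 CPM).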

How the results depend on the processing

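No value changed direction under any alternative run. Of the counts and medians, 560 values stayed within the limits set and 68 moved; of named members, 1069 values kept their side of the threshold, 167 lost a call and 18 gained one; the cause was not tested. In order of Kat6a homozygous, Kat6a heterozygous, Dlx5 homozygous, Dlx5 heterozygous and double heterozygous against wild type, DESeq2 called 15, 9, 3, 1 and 15 members (2.11%, 0.551%, 0.262%, 0.214% and 1.28% of all genes), and limma voom 7, 0, 1, 0 and 7 (0.993%, 0%, 0.117%, 0% and 0.91%). DESeq2 called 3 between Kat6a homozygous and Kat6a heterozygous (1.01% of all genes) and 2 between Dlx5 homozygous and double heterozygous (0.0483%), where voom called 1 (0.276%). Across all groups DESeq2 called 25, or 28.7% of members against 4.28% of all genes (voom 3, or 3.45% against 1.28%). For the facility it called 1 (0.186%), as did voom (0.345%). Called members in the Kat6a homozygotes numbered 5 within batch 2 (0.653% of all genes) and 2 with only the groups compared (0.46%). They numbered 2 (0.495%) without the 5 replicate 2 libraries above the mean for neuron and glia markers. In the double heterozygotes 0 were called with only the groups compared (0.0716%), 1 without those 5 libraries (0.997%) and 0 without the facility term (0.0689%). Between Kat6a homozygous and heterozygous 0 were called within batch 2 (0.327%), with only the groups compared (0.23%) and without those 5 libraries (0.206%). Without those 5 libraries 1 was also called between Dlx5 homozygous and double heterozygous (1.11%) and 1 across all groups (1.71%). Upper-quartile and total-count scaling gave 4 and 3 across all groups (1.52% and 1.57% of all genes). Length-corrected offsets gave 3 in the double heterozygotes (0.496% of all genes) and 5 between Kat6a homozygous and heterozygous (0.869%). They gave 14 across all groups (2.34%) and 1 for the facility (0.0896%). Their medians were -0.11 for Kat6a heterozygous and -0.0595 for Dlx5 homozygous arches. Without the wild type libraries, an alternative chosen after seeing the data, 2 were called between Kat6a homozygous and heterozygous (0.893% of all genes). Without the 100 most abundant other genes the members' share was 1.63%.

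With the replicate number as a block, 13 members were called in the Kat6a homozygotes (2.01% of all genes), 0 in the double heterozygotes (0.317%) and 9 across all groups (1.87%). The labels do not say whether same-numbered replicates belong together. Correlations of their deviations fell as low as -0.281, for double heterozygous against wild type. Leaving out each library in turn gave 3 to 15 members in the Kat6a homozygotes, 0 to 7 in Kat6a heterozygous, 0 to 1 in Dlx5 homozygous, 0 to 0 in Dlx5 heterozygous and 0 to 13 in double heterozygous arches, 1 to 2 between Kat6a homozygous and heterozygous, 0 to 0 between Dlx5 homozygous and double heterozygous, 1 to 15 across all groups and 0 to 0 for the facility. Medians, in the order above, were -0.15 to -0.04, -0.23 to -0.11, -0.21 to -0.09, -0.17 to -0.06 and -0.22 to -0.10, then 0.03 to 0.13 and 0.00 to 0.08, and the share was 1.39% to 1.42%. For Dlx5 homozygous against wild type no fit within 1 batch or with only the groups compared could be had, since each group came from its own facility.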

Other observations

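The ratio of counts on small-subunit genes to counts on large-subunit genes varied little. It was 0.704 ± 0.020 over the 24 libraries (SD, range 0.670 to 0.758). Group means were 0.705 ± 0.0057 in wild type, 0.701 ± 0.019 in Kat6a heterozygous, 0.726 ± 0.023 in Dlx5 heterozygous, 0.709 ± 0.016 in double heterozygous, 0.693 ± 0.017 in Dlx5 homozygous and 0.689 ± 0.019 in Kat6a homozygous arches (SD, n = 4 each), and each range overlapped that of wild type.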
